A study of Mus musculus with 2 samples.

Results

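Hmgcs1, Idi1, Fdft1, Sqle, Lss, Cyp51 and Dhcr7 encode 7 enzymes of cholesterol synthesis, and their transcripts were followed here through the cell classes of newborn mouse epidermis. The genes were chosen by symbol, and all 7 were found among the 27998 genes of both deposited matrices. The study profiled single cells to learn what loss of Chrm3, a muscarinic acetylcholine receptor gene, does to newborn skin. The samples used here were 2 Chrm3 KO mice, male, on the C57BL/6J background, at postnatal day 0, with 1 library of single cells from each mouse. Both mice carried the same deletion, which the study writes as Chrm3-/- and for which its text names no tissue-specific Cre, so every value below belongs to Chrm3 KO epidermis. Wild-type libraries were not analysed here and no comparison of genotypes was made.

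Cholesterol is built from acetyl-CoA by way of mevalonate, isoprenoids, squalene and lanosterol. Hmgcs1 makes HMG-CoA at the start of the route, Idi1 interconverts the isoprenoid building blocks, Fdft1 joins farnesyl units into squalene, Sqle oxidizes squalene, Lss closes the sterol ring, Cyp51 removes a methyl group from lanosterol, and Dhcr7 is a late reductase whose substrate is also the precursor of vitamin D. Transcription of the route is driven by the sterol-sensing factor Srebf2 when sterols in the endoplasmic reticulum are low. In skin, cholesterol forms part of the lipid lamellae of the cornified layer, and sebaceous glands make large amounts of lipid, among them wax esters and sterol esters.

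The genes lie on 6 chromosomes and are protein coding (GENCODE M21, GRCm38). Hmgcs1 spans chr13:119690379-119708260 on the plus strand and Idi1 spans chr13:8885501-8892451 on the plus strand. Fdft1 spans chr14:63145150-63179578 on the minus strand, Sqle chr15:59315077-59331192 on the plus strand and Lss chr10:76531588-76557138 on the plus strand. Cyp51 spans chr5:4081145-4104746 on the minus strand and Dhcr7 chr7:143823145-143848410 on the plus strand. Promoter windows from RefSeq (GRCm38.p6, 250 bases before to 50 bases after a transcript start) were matched for 5 of the 7 genes, with 3 windows for Dhcr7, and Fdft1 and Sqle had no entry.

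The 250 bases before the start are shown for those 5 genes so that the promoters of genes of 1 route can be compared letter by letter. Each line reads 5′ to 3′ on the strand of the gene, and capitals mark the CCAAT box bound by NF-Y (ATTGG where it lies on the opposite strand) and, in Hmgcs1, the sterol regulatory element TCACCCCAC.
Hmgcs1 (chr13:119690101-119690350, plus): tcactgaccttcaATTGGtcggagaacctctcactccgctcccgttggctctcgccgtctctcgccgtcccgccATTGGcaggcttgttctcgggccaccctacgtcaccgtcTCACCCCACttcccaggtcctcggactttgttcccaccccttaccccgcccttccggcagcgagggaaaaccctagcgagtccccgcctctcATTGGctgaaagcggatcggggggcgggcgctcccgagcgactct
Idi1 (chr13:8885356-8885605, plus): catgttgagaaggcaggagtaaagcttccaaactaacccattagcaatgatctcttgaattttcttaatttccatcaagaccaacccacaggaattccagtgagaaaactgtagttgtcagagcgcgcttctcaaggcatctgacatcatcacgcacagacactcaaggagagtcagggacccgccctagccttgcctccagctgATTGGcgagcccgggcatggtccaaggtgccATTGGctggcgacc
Lss (chr10:76531355-76531604, plus): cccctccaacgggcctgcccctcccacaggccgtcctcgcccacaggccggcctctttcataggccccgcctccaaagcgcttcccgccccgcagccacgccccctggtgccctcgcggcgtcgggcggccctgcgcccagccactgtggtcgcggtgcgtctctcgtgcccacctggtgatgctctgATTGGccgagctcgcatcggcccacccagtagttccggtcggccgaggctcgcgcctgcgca
Cyp51 (chr5:4104698-4104947, minus): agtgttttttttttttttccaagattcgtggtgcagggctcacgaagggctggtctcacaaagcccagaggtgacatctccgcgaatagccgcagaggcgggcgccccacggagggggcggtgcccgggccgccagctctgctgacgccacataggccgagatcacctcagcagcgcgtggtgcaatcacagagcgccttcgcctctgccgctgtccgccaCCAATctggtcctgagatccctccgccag
Dhcr7, window 1 (chr7:143822917-143823166, plus): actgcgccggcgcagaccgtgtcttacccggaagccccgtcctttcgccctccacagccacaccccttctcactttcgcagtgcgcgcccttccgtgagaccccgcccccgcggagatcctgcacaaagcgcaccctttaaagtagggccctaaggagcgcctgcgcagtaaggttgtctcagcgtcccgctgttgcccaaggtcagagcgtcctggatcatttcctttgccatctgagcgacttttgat
Dhcr7, window 3 (chr7:143829964-143830213, plus): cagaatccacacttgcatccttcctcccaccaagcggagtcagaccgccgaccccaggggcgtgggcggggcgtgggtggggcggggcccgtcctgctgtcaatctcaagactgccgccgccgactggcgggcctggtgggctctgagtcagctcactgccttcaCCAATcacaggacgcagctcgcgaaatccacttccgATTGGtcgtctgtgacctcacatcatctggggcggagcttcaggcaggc

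The transcript start of Dhcr7 window 1 lay 22 bases into the gene as GENCODE places it and that of window 3 lay 7069 bases into it, and window 3 is shown because it holds CCAAT. All motifs were searched on both strands of the 300-base windows. CCAAT occurred 4 times in the Hmgcs1 window, 2 times in Idi1, 1 time in Lss, 1 time in Cyp51 and 2 times in Dhcr7 window 3, while the other Dhcr7 windows held none. Among all 32851 RefSeq windows of the same length, 37.4% held CCAAT. The element TCACNCCAC was found in Hmgcs1 alone of the 5 genes, starting 137 bases before the transcript start, against 1.24% of all windows. Its shorter core CACNCCAC matched at the same site and nowhere else in these windows, against 6.24% of all windows. GGGCGG, the box bound by Sp1, was present in at least 1 window of all 5 genes, while Dhcr7 window 2 held none. Of all windows, counted singly and not per gene, 35.7% held it. These matches describe letters only, and binding was not measured.

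The 2 libraries held 109756784 and 166441732 UMIs, where a UMI marks 1 captured RNA molecule. Cells with 900 to 7700 detected genes and under 10% mitochondrial UMIs were kept, which left 7607 of 10816 barcodes in mouse 1 and 11881 of 15867 in mouse 2, with median depths of 10480 and 10577 UMIs. Chrm3 itself gave 13 UMIs in 7607 cells and 19 UMIs in 11881 cells, a level at which no check of the deletion was possible without control cells, and a remaining transcript would also be counted. Clusters were named from marker genes, none of which was a sterol gene, and the names are used here as "like": cells called basal IFE (interfollicular epidermis) are basal-like. Krt10 stood at 39679 and 36072 CPM (UMIs of the gene over all UMIs of the class, per 1000000, after TMM scaling) in differentiated IFE against 529 and 867 in basal IFE, and the sebocyte gene Cidea stood at 2666 and 1711 CPM in sebaceous cells and at no more than 28 CPM in any other class. Krt14, a basal keratin, gave 909 to 2573 CPM in Langerhans, T and dermal-like cells, against 14402 and 15360 CPM in basal IFE, a value for the keratinocyte RNA that such droplets held. Before filtering, 127 barcodes occurred in both libraries, and 34 barcodes were kept in both. Leaving out every kept cell with any of the 127 barcodes changed no call reported here.

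The 7 transcripts shared the top 2 places of their order but not the places below, where basal IFE ranked 4 for Hmgcs1 and 14 for Sqle. Every member was highest in sebaceous cells and next highest in differentiated IFE, among 14 classes with at least 20 cells in each mouse. The summed level of the 7 genes was 2672 and 1955 CPM in sebaceous cells of mouse 1 and mouse 2, 727 and 713 CPM in differentiated IFE, and 370 and 411 CPM in transitional IFE. Inner root sheath and hair shaft cells gave 365 and 368 CPM, upper follicle cells 325 and 317, melanocytes 313 and 316, and terminally differentiated IFE 306 and 355. These values lay close together, and most neighbouring classes in a member's order below differentiated IFE overlapped between the mice. Dividing follicle cells (266 and 272 CPM), dividing basal IFE (249 and 290), basal IFE (244 and 299), T cells (213 and 194), follicle cells (192 and 213), Langerhans cells (137 and 173) and dermal-like cells (137 and 201) followed. The sum leans on Hmgcs1, which gave 129 of the 244 CPM of basal IFE in mouse 1 and 145 of the 299 CPM in mouse 2. Within each mouse the sebaceous level lay above the differentiated level for all 7 genes, and for 6 of them both sebaceous values lay above both differentiated values. Dhcr7 overlapped across the mice, at 110 and 65.3 CPM in sebaceous cells and 78.4 and 62.3 CPM in differentiated IFE.

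**Figure D1:**
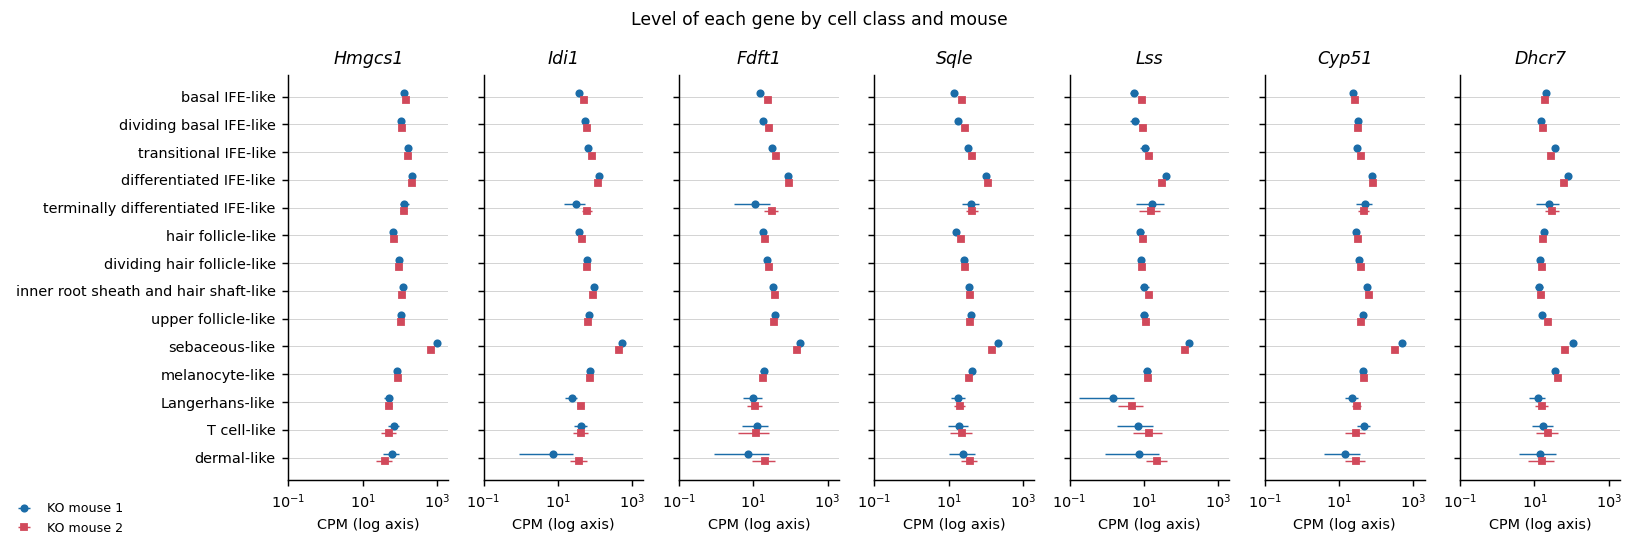
Level of each of the 7 genes in 14 cell classes, in CPM on a log axis, with 1 point per mouse and a bar for the exact Poisson interval of its UMIs, which covers counting error only. Sebaceous cells and differentiated IFE hold the highest points in every panel, and Dhcr7 is the gene for which the values of these classes overlap across the mice.

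The place after differentiated IFE differed between members. It was held by transitional IFE for Hmgcs1 (163 and 164 CPM), by inner root sheath and hair shaft cells for Idi1 (96.1 and 86.5) and Cyp51 (55.2 and 61.8), by the upper follicle for Fdft1 (38.4 and 37.1), by melanocytes for Dhcr7 (35.6 and 44.1) and by terminally differentiated IFE for Sqle (40.9 and 42.7) and Lss (16.4 and 15.1). For Fdft1 the upper follicle overlapped with transitional IFE at 31.7 and 41.5 CPM. The next class overlapped likewise for Sqle (melanocytes, 41.7 and 35.1 CPM), Lss (dermal-like cells, 7.19 and 23.1 CPM) and Dhcr7 (transitional IFE). The Lss values of terminally differentiated IFE rested on 6 and 11 UMIs. UMIs were counted at transcript ends and were not scaled by length, so the levels of different genes are not ranked against each other. Across the 28 sums of class and mouse, log2(CPM + 1) of member pairs correlated with a Pearson r between 0.727 and 0.915 and a lower Spearman rho between 0.454 and 0.881. These sums share 2 animals, and pairs of classes share their libraries, so r is given as a description only.

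The share of cells with a UMI of any member gave a flatter view. With every cell thinned to 3000 UMIs, that share was 77.2% and 78.2% in sebaceous cells, 73.6% and 75.8% in differentiated IFE, 45.3% and 49.4% in basal IFE, and 26.4% and 29.0% in Langerhans cells. At full depth it ran from 53.8% in Langerhans cells of mouse 1 to 99.5% in differentiated IFE of mouse 2. For Dhcr7 alone the thinned share was lower in sebaceous cells (8.91% and 8.33%) than in differentiated IFE (13.5% and 13.5%). Sqle had a higher share in sebaceous cells in mouse 1 (25.7% against 20.2%) and a lower one in mouse 2 (19.9% against 24.6%). The other genes had higher shares in sebaceous cells in both mice. Median depths were 17545 and 16500.5 UMIs in sebaceous cells and 23569 and 22710 in differentiated IFE, and the thinning left out 2 sebaceous cells and 5 differentiated cells over both mice. No class in the data was a clear negative for these enzymes, so the part that free RNA adds to a share was not tested.

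The first comparison set the stages of IFE against basal cells. A cluster led by Pltp gave 537 of the 1075 basal IFE cells in mouse 1 and 910 of 1809 in mouse 2. With no basal marker among its leading genes, it was named at a mean log2 enrichment of 0.525, against a limit of 0.5. At a finer clustering a cluster led by Pltp stayed unnamed. Clusters led by Ccl27a (0.604) and Pcsk2 (0.790) had conflicting markers and joined basal IFE under a looser naming. Both settings are among the alternatives. Transitional IFE, which held Krt10 at 9997 and 8139 CPM and still held Krt14 at 13962 and 17692 CPM, near the basal level, carried higher levels than basal IFE for 6 of the 7 genes, where 31.7% of the 13895 genes tested passed the same test, 13.3% as higher and 18.4% as lower (edgeR quasi-likelihood test on UMI sums per mouse, Benjamini-Hochberg adjusted p under 0.05). The median log2 fold change of the 7 genes was 0.73, against −0.05 for all genes tested. Sqle, which oxidizes squalene, stood at 13.9 and 22.4 CPM in basal IFE of mouse 1 and mouse 2 and at 32.7 and 43.0 CPM in transitional IFE. Both transitional values lay above both basal values, and Sqle rose by a log2 fold change of 1.04 ± 0.20 (SE, n = 2 mice, adjusted p = 0.00025). Fdft1 (0.87 ± 0.19), Idi1 (0.74 ± 0.17), Lss (0.73 ± 0.25), Dhcr7 (0.70 ± 0.18) and Cyp51 (0.43 ± 0.16) rose as well, with adjusted p between 0.00087 and 0.049. Lss lost the call with only the classes compared in the fit (adjusted p = 0.061) and under a 5% mitochondrial limit (adjusted p = 0.419), and Cyp51 lost it with DESeq2 (adjusted p = 0.054) and at a finer clustering (adjusted p = 0.06). Hmgcs1, at 129 and 145 CPM in basal and 163 and 164 CPM in transitional IFE, did not pass (0.25 ± 0.11, adjusted p = 0.097), although it passed under 4 alternatives, with 0.63 and adjusted p = 0.0031 among cells with under 5% mitochondrial UMIs. The mice are the only replicates, 2 animals of 1 genotype. The p-values of the main fit rest on the spread between them, pooled over 14 classes as if all sums were independent. A pooled SE can therefore be smaller than the difference between the mice. In sums over cells, more RNA of a gene per cell cannot be told apart from more cells that make it.

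In differentiated IFE, the class with the highest Krt10, all 7 genes were higher than in basal IFE, where 53.1% of all genes passed, 25.6% as higher and 27.5% as lower. Their median log2 fold change was 1.87, against −0.04 for all genes. Sqle reached 105 and 118 CPM, and both mice lay far above the 13.9 and 22.4 CPM of basal IFE (2.58 ± 0.20, adjusted p = 2.7e-11). Lss, at 5.50 and 9.05 CPM in basal IFE, rose to 38.3 and 31.4 CPM, and the groups did not overlap (2.20 ± 0.23, adjusted p = 6e-09). Fdft1 went from 14.8 and 24.6 CPM to 84.7 and 92.6 CPM (2.14 ± 0.19, adjusted p = 3.4e-10). Dhcr7, Cyp51 and Idi1 followed with 1.87 ± 0.18, 1.62 ± 0.16 and 1.44 ± 0.17. Hmgcs1 was the member with the smallest change, from 129 and 145 CPM to 220 and 210 CPM (0.65 ± 0.11, adjusted p = 3e-05). Its values did not overlap between the classes.

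**Figure D2:**
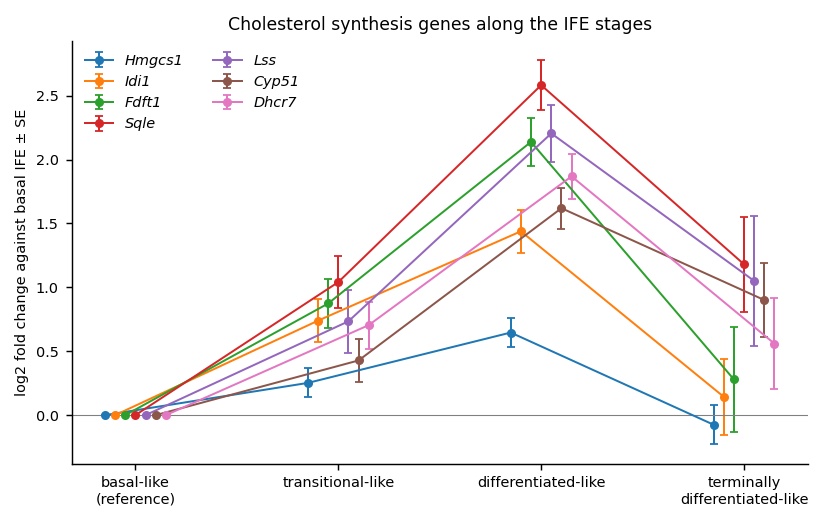
Log2 fold change against basal IFE for transitional, differentiated and terminally differentiated IFE, with basal IFE set to 0, 1 line per gene and bars of 1 SE from the edgeR fit. All 7 lines peak at differentiated IFE, from 0.65 for Hmgcs1 to 2.58 for Sqle, and lie between −0.08 and 1.18 in the terminally differentiated class.

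The terminally differentiated class was small, with 48 and 62 cells and median depths of 5210 and 9365 UMIs, and it was named from cornified envelope genes of the Lce1 family, which led the cluster. Lor, another gene of the cornified envelope, stood at 15380 and 11566 CPM. The class also held Krt14 at 3921 and 5084 CPM and the division gene Mki67 at 218 and 172 CPM, and the part of these in the results was not tested. Against differentiated IFE, all 7 genes fell, where 29.3% of all genes passed, 12.5% as higher and 16.9% as lower. Fdft1 fell by 1.86 on the log2 scale (SE 0.35, adjusted p = 0.00017), from 84.7 and 92.6 CPM to 10.9 and 31.7 CPM. The mouse 1 value rested on 4 UMIs, and Fdft1 changed by −2.90 in mouse 1 alone and by −1.53 in mouse 2 alone. Sqle (−1.40 ± 0.32), Dhcr7 (−1.31 ± 0.32), Idi1 (−1.29 ± 0.28) and Hmgcs1 (−0.72 ± 0.15) fell with adjusted p between 0.00069 and 0.0023. Lss (−1.15 ± 0.43, adjusted p = 0.044) and Cyp51 (−0.72 ± 0.26, adjusted p = 0.04) lay near the threshold, and both lost the call in 4 alternatives, among them DESeq2 (adjusted p = 0.063 and 0.103). With mouse as a block Cyp51 also lost it (adjusted p = 0.097).

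Set against basal IFE, the terminally differentiated class was higher for 2 of the 7 genes, where 16.5% of all genes passed, 7.69% as higher and 8.83% as lower. Sqle stood at 40.9 and 42.7 CPM against 13.9 and 22.4 (1.18 ± 0.37, adjusted p = 0.03), and Cyp51 at 49.1 and 46.8 CPM against 23.3 and 27.4 (0.90 ± 0.29, adjusted p = 0.031). Both genes were separated from the basal values in both mice. Cyp51 was not called with mouse as a block (adjusted p = 0.103), and Sqle was not called at a finer clustering (adjusted p = 0.078). Lss, not called in the main fit, was called higher with DESeq2 (1.26, adjusted p = 0.027). Hmgcs1, at 134 and 128 CPM, lay among the basal values, with a log2 fold change of −0.08 ± 0.15 that became 0.13 with DESeq2 size factors. That scaling moved the median of all genes by 0.197 in this comparison, and it moved the share of calls that were higher from 46.6% to 72.2%, and against differentiated IFE from 42.5% to 56.5%.

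The class called dividing basal IFE differed from resting basal IFE for 0 of the 7 genes with edgeR, where 18.7% of all genes passed, 7.91% as higher and 10.8% as lower. A cluster led by Cdc20 gave 382 of the 655 cells of this class in mouse 1 and 550 of 1114 in mouse 2. Its mean log2 enrichment of division markers over all other cells was −0.312, against −0.891 and −2.295 in the resting clusters. Its mean enrichment of basal markers was 0.098. The 0 calls therefore do not settle whether dividing basal cells differ. At an unadjusted p under 0.05 there were 2 genes, Hmgcs1 and Idi1, and DESeq2 called 0. Hmgcs1 stood at 108 and 118 CPM in dividing and at 129 and 145 CPM in resting basal cells, and the mice did not overlap, but the difference missed the threshold (−0.28 ± 0.11, adjusted p = 0.088). Idi1 stood at 54.2 and 60.5 against 37.6 and 51.6 CPM (0.36 ± 0.16, adjusted p = 0.14). With mouse as a block both passed, Hmgcs1 with −0.28 and adjusted p = 0.036 and Idi1 with 0.34 and adjusted p = 0.025, and 4070 genes were called in place of 2597. Idi1 also passed with no filter on low counts (0.36, adjusted p = 0.026) and under a 5% mitochondrial limit (0.71, adjusted p = 0.012). It passed as well without integration (0.48, adjusted p = 0.031) and under a looser naming of clusters (0.52, adjusted p = 0.022). Sqle passed without integration (0.55, adjusted p = 0.036). The other 5 genes lay between −0.28 and 0.31. DESeq2 size factors moved the share of calls that were higher from 42.3% to 55.4%. At a finer clustering, clusters with leading genes like those of the Cdc20 cluster were named dividing follicle (551 cells) and basal IFE (334 cells).

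The classes of the hair follicle were set against resting basal IFE next, and their naming was partly weak. A cluster led by Sfrp1 gave 648 of 1041 follicle cells in mouse 1 and 940 of 1669 in mouse 2. It was named from 2 leading genes, while its mean log2 enrichment of follicle markers over all other cells was −0.016. A cluster led by Hist1h1b gave 722 of 895 and 1009 of 1217 dividing follicle cells, with a mean of 0.117. What this naming adds to the results was not tested. Follicle keratinocytes that were not dividing differed from basal IFE for 1 of the 7 genes, where 28.9% of all genes passed, 15.3% as higher and 13.6% as lower. That gene was Hmgcs1, at 67.2 and 68.1 CPM against 129 and 145 CPM, which fell by 1.02 on the log2 scale (SE 0.11, adjusted p = 1.1e-07). The classes did not overlap. The other 6 genes had log2 fold changes between −0.16 and 0.26, and of these Dhcr7 was called lower at a finer clustering (−0.65, adjusted p = 0.0038). Dividing follicle cells had 3 members higher and 1 lower than resting basal IFE, where 39.9% of all genes passed, 18% as higher and 21.9% as lower. The mean log2 enrichment of division markers was 1.38 and 1.07 in the clusters of this class, and −0.891 and −2.295 in those of basal IFE. Follicle lineage and division therefore cannot be told apart in this comparison. Hmgcs1 was lower again, at 97.1 and 93.5 CPM (−0.53 ± 0.11, adjusted p = 0.00045), but it stood at 0.06 among cells with under 5% mitochondrial UMIs. Cyp51, Sqle and Idi1 rose by 0.53 ± 0.15, 0.54 ± 0.19 and 0.45 ± 0.16. At a finer clustering Sqle (0.30, adjusted p = 0.257) and Idi1 (adjusted p = 0.083) were not called, and Sqle was not called with only the classes compared in the fit (adjusted p = 0.061). Dhcr7, not called in the main fit, was called lower in these settings (−0.52, adjusted p = 0.014, and −0.34, adjusted p = 0.043). Fdft1, also not called there, was called higher under a 5% mitochondrial limit (0.74, adjusted p = 0.021) and a looser naming of clusters (0.44, adjusted p = 0.037).

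Inner root sheath and hair shaft cells, which build the hair, were higher than basal IFE for 5 of the 7 genes, where 48.2% of all genes passed, 20.5% as higher and 27.7% as lower. This class had a mean log2 enrichment of division markers over all other cells of 1.02. That lies above the limit of 1 at which basal or follicle clusters were called dividing. Clusters with a division marker among their leading genes could be called dividing below that limit. As the class is set against resting basal IFE, hair lineage and division cannot be told apart here. Cyp51 stood at 55.2 and 61.8 CPM against 23.3 and 27.4 (1.2 ± 0.15, adjusted p = 4.1e-07), and Idi1 at 96.1 and 86.5 CPM against 37.6 and 51.6 (1.02 ± 0.16, adjusted p = 1.2e-05). Both classes were clear of each other for these genes. Sqle (1.00 ± 0.20), Fdft1 (0.84 ± 0.19) and Lss (0.72 ± 0.24) rose too, and Lss was not called under a 5% mitochondrial limit (0.44, adjusted p = 0.294). Hmgcs1 (−0.23 ± 0.11) and Dhcr7 (−0.42 ± 0.20), the first and last enzymes among the 7, did not pass, with adjusted p of 0.103 and 0.084, but Dhcr7 was called lower under 3 alternatives, with −0.62 and adjusted p = 0.0086 at a finer clustering, where Hmgcs1 was called too (−0.38, adjusted p = 0.0063). Upper follicle cells, marked by Krt79 and Krt17, were higher for 4 genes and lower for 1, where 43.4% of all genes passed, 22.2% as higher and 21.2% as lower. Sqle stood at 39.0 and 37.7 CPM (1.05 ± 0.20, adjusted p = 0.00014), followed by Fdft1 (0.91 ± 0.19), Cyp51 (0.70 ± 0.16) and Idi1 (0.54 ± 0.17). Hmgcs1 was lower at 109 and 107 CPM (−0.35 ± 0.11, adjusted p = 0.016), and this call did not hold under a looser naming of clusters (adjusted p = 0.093) or among cells with under 5% mitochondrial UMIs, where the value was 0.15. Lss, at 0.49 ± 0.25, was called under 4 alternatives, with adjusted p between 0.0067 and 0.047.

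**Figure D3:**
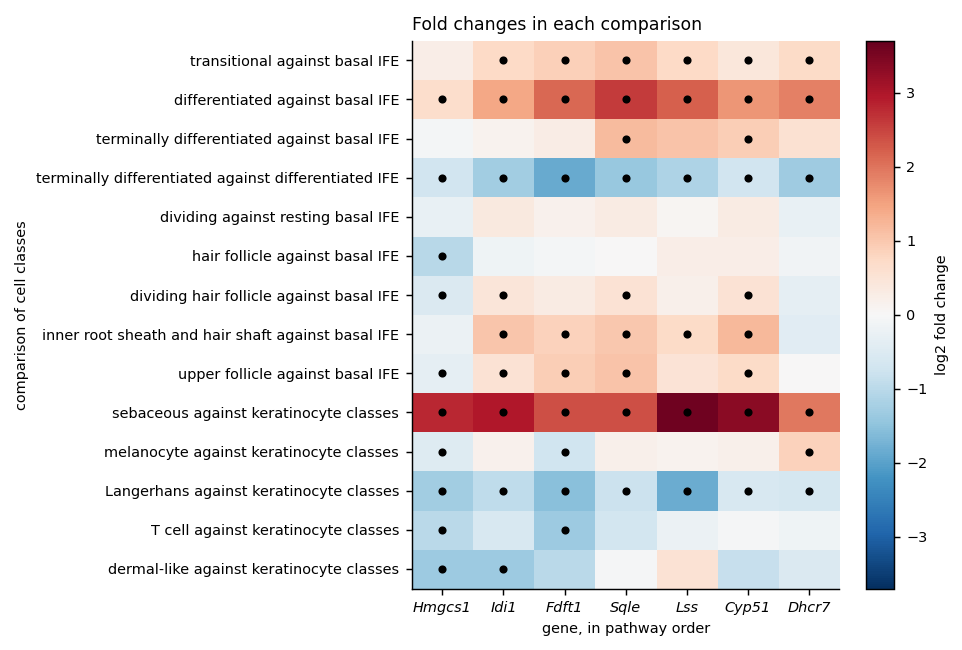
Log2 fold changes of the 7 genes (columns, in pathway order) in each of the 14 comparisons (rows), as colour from blue for lower to red for higher, with a black dot where adjusted p was under 0.05. All 7 cells are red and dotted for differentiated against basal IFE and for sebaceous cells against the keratinocyte mean. They are blue and dotted for Langerhans cells against that mean and for terminally differentiated against differentiated IFE.

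Sebaceous cells, the lipid-producing cells attached to the follicle, were compared with the mean of 9 keratinocyte classes of IFE and follicle, each weighted equally on the log scale. All 7 genes were higher, where 47.4% of all genes passed, 21.5% as higher and 25.9% as lower. Their median log2 fold change was 2.79, against −0.18 for all genes. Lss, which closes the sterol ring, stood at 160 and 128 CPM, while no other class exceeded 38.3 CPM (3.61 ± 0.14, adjusted p = 8.9e-18). Cyp51 stood at 491 and 323 CPM (3.33 ± 0.09), Idi1 at 542 and 447 (2.95 ± 0.10) and Hmgcs1 at 983 and 700 (2.79 ± 0.07). Both mice lay above every other class for these genes, with mouse 1 above mouse 2 in each. The log2 fold change of Cyp51 was 3.64 in mouse 1 alone and 2.94 in mouse 2 alone, further apart than its pooled SE shows. Fdft1 at 176 and 148 CPM (2.40 ± 0.13) and Sqle at 210 and 144 CPM (2.39 ± 0.13) were also clear of the other classes. Dhcr7 had the smallest difference, at 110 and 65.3 CPM (1.94 ± 0.14, adjusted p = 9.7e-12).

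The sebaceous class was not uniform, and the split described next was chosen after the values were seen and carries no test. Elovl3, a fatty acid elongase of the sebaceous gland, had no UMI in 39 of 101 sebaceous cells of mouse 1 and in 69 of 158 of mouse 2. In those cells the 7 genes summed to 445 and 452 CPM, here without TMM scaling, with median depths of 11274 and 10844 UMIs. In the upper part of the cells with Elovl3 (31 and 44 cells) the sum was 4207 and 3692 CPM, with median depths of 27031 and 24217 UMIs, and in the lower part (31 and 45 cells) it was 957 and 571. On the same scale differentiated IFE gave 568 and 571 and basal IFE 228 and 276. So by this sum the sebaceous cells with no Elovl3 lay below differentiated IFE, and the upper part lay above every class. Single genes differed from the sum. In cells with no Elovl3, Hmgcs1 (246 and 195 CPM) and Lss (31.5 and 29.5 CPM) lay above their unscaled levels in differentiated IFE in both mice. Idi1 lay above in mouse 2 only, and the other genes lay below. The Lss levels rested on 15 and 28 UMIs and the Idi1 level of mouse 2 on 95 UMIs. Counting error was not set against these differences. Dhcr7 gave 0 UMIs in the cells of mouse 1 with no Elovl3, so that its level in the upper part was at least 31.4-fold higher, counted against a floor of 3 UMIs for that group, and it was 25.9-fold higher in mouse 2. Cyp51 was 23.5-fold and 14.5-fold higher, Sqle 20.9-fold and 6.81-fold, and Hmgcs1 6.03-fold and 6.46-fold. Idi1, Fdft1 and Lss ranged from 7.47-fold to 9.67-fold over both mice. Depth rose with Elovl3, and its part in the differences was not tested.

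**Figure D4:**
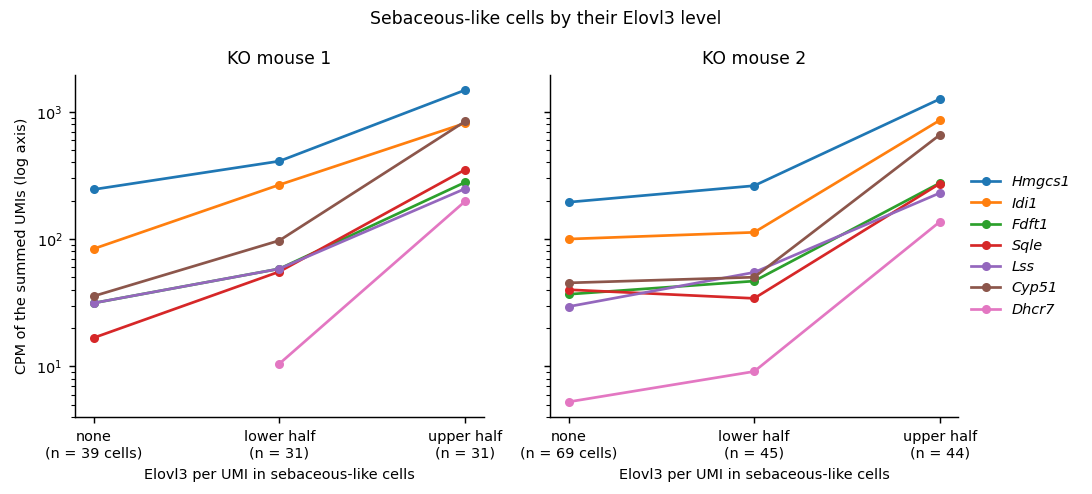
Level of each gene within the sebaceous class, in CPM without TMM scaling on a log axis, for cells with no Elovl3 UMI and for the lower and upper parts of the cells with Elovl3, with 1 panel per mouse and 1 line per gene. All genes are highest in the upper part in both mice, and Dhcr7 has no point for cells with no Elovl3 in mouse 1, where it had 0 UMIs.

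From cell to cell within the sebaceous class, log-scaled levels of member pairs had a median r of 0.762 in mouse 1 (101 cells) and 0.633 in mouse 2 (158 cells). With Elovl3 the median r over the 7 genes was 0.778 and 0.717, with the fatty acid synthase gene Fasn it was 0.739 and 0.675, and with the basal keratin Krt14 it was −0.131 and −0.192. The cells share a library and differ in depth, so these are descriptions. The level also moved with the mitochondrial share, which itself rose with Elovl3, and the 2 were not separated. Dhcr7 stood at 20.5 and 17.6 CPM without TMM scaling in sebaceous cells with under 5% mitochondrial UMIs (43 and 89 cells) and at 139 and 98.2 in those with 5 to 10% (58 and 69 cells). Among cells with under 5% the difference of Dhcr7 from keratinocytes was −0.22 (adjusted p = 0.57) in place of 1.94, while the other 6 genes kept their calls.

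Melanocytes, which make pigment, differed from the keratinocyte mean for 3 of the 7 genes, where 54% of all genes passed, 29.3% as higher and 24.7% as lower. Dhcr7 was higher, at 35.6 and 44.1 CPM (0.85 ± 0.13, adjusted p = 6.9e-06). Hmgcs1, at 86.7 and 87.9 CPM, fell by 0.48 on the log2 scale (SE 0.09), and Fdft1, at 19 and 18.1 CPM, fell by 0.73 (SE 0.17). These falls are from the mean and not from each class. For Fdft1, basal IFE stood at 14.8 and 24.6 CPM, on both sides of the melanocyte values. The other 4 genes lay between 0.13 and 0.20 and did not pass. Doublet scoring marked more cells in melanocytes, Langerhans cells and dermal-like cells than elsewhere, up to 11.4% of a class, and without them none of the 3 melanocyte calls was lost, while in Langerhans cells the call of Dhcr7 was lost (−0.75, adjusted p = 0.053).

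Langerhans cells, the dendritic cells of the epidermis, were lower than the keratinocyte mean for all 7 genes, where 53.7% of all genes passed, 26.6% as higher and 27.1% as lower. Hmgcs1 stood at 50 and 50.1 CPM (−1.28 ± 0.13, adjusted p = 3.8e-09) and Fdft1 at 9.85 and 11.1 CPM (−1.54 ± 0.31, adjusted p = 0.00015). The mice gave nearly the same values for both. Lss rested on 2 and 8 UMIs, at 1.51 and 4.66 CPM (−1.82 ± 0.47, adjusted p = 0.0018). Idi1 (−0.95 ± 0.21), Sqle (−0.79 ± 0.27), Dhcr7 (−0.66 ± 0.27) and Cyp51 (−0.60 ± 0.20) fell less. The keratinocyte classes behind the mean differ, and not each of them lay above Langerhans cells. Sqle stood at 18.2 and 20.4 CPM, against 13.9 and 22.4 in basal IFE. Cyp51 stood at 22.0 and 30.3 CPM, against 23.3 and 27.4 there. Hmgcs1 and Lss lay below every keratinocyte class in both mice. With DESeq2 size factors, which moved the median of all genes by 0.122, Dhcr7 and Cyp51 kept their direction and lost the call (adjusted p = 0.102 and 0.051), and Dhcr7 also lost it with DESeq2 (adjusted p = 0.085) and under a 5% mitochondrial limit (adjusted p = 0.069). T cells (52 and 38 cells) were lower for 2 genes, where 32.8% of all genes passed, 16% as higher and 16.8% as lower. These were Hmgcs1 at 68.2 and 51.3 CPM (−1.0 ± 0.17) and Fdft1 at 12.2 and 11.7 CPM (−1.35 ± 0.48). The Fdft1 values rested on 7 and 5 UMIs, and Fdft1 was not called under a 5% mitochondrial limit (adjusted p = 0.059). It was also not called with DESeq2 size factors (adjusted p = 0.059), which moved the median of all genes by 0.149. Dermal-like cells (39 and 67 cells) were lower for 2 genes, where 27.7% of all genes passed, 13.9% as higher and 13.9% as lower. These were Hmgcs1 at 61.2 and 39.3 CPM (−1.34 ± 0.21) and Idi1 at 7.19 and 37.0 CPM (−1.34 ± 0.39). The Idi1 value of mouse 1 rested on 2 UMIs, and the log2 fold change was −2.93 in mouse 1 alone and −0.85 in mouse 2 alone. The same scaling moved the share of calls that were higher from 48.8% to 59.5% in T cells and, with a median shift of 0.195, from 50% to 64.7% in dermal-like cells.

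Of 15 other listed enzymes of the route, all of which were tested, 7 were higher and 0 lower in transitional than in basal IFE, where 13.3% of all genes were higher and 18.4% lower, and the lowest p-values belonged to the mevalonate kinase Mvk (1.17 ± 0.10), Fdps (1.05 ± 0.18), Hsd17b7 (1.43 ± 0.26) and Msmo1 (1.14 ± 0.23). In differentiated IFE 12 were higher and 0 lower, against 25.6% and 27.5% of all genes, led by Mvk (2.40 ± 0.10), Mvd (2.68 ± 0.18), Pmvk (2.60 ± 0.18) and Ebp (1.62 ± 0.13). The median of the 15 was 1.85, beside 1.87 for the 7 members. Between differentiated and terminally differentiated IFE 0 were higher and 9 lower, against 12.5% and 16.9% of all genes, led by Mvk (−2.37 ± 0.17), Ebp (−1.76 ± 0.22), Mvd (−2.61 ± 0.41) and Fdps (−1.65 ± 0.28). Dividing basal cells had 2 higher than resting ones and 0 lower, against 7.91% and 10.8% of all genes, with the lowest p-value for the sterol reductase Lbr (1.07 ± 0.10). Lbr is also an anchor of chromatin at the nuclear envelope.

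Follicle cells that were not dividing had 1 of the 15 enzymes higher and 2 lower than basal IFE, against 15.3% and 13.6% of all genes. Inner root sheath and hair shaft cells had 8 higher and 1 lower, against 20.5% and 27.7% of all genes, with Lbr (1.16 ± 0.10) and Fdps (1.2 ± 0.18) at the lowest p-values, and upper follicle cells had 7 higher and 1 lower, against 22.2% and 21.2% of all genes, among them Mvk (0.58 ± 0.10), Msmo1 (1.03 ± 0.23) and Fdps (0.82 ± 0.18). In sebaceous cells 12 were higher than in keratinocytes and 2 lower, against 21.5% and 25.9% of all genes. Msmo1, which removes methyl groups from the sterol ring, was higher by 5.35 ± 0.11 and Mvd, which makes isopentenyl diphosphate, by 3.98 ± 0.11. Sc5d, which makes the substrate of Dhcr7, was one of the 2 lower enzymes at −1.72 ± 0.20, and it is named after its value was seen. Melanocytes had 6 higher and 2 lower, a share near the 54% of all genes that passed there, with Ebp (1.15 ± 0.09) at the lowest p-value. Langerhans cells, where 53.7% of all genes passed, had 2 higher, Pmvk (1.78 ± 0.17) and Ebp (1.06 ± 0.12), and 3 lower, among them Lbr (−1.30 ± 0.14) and Acat2 (−1.49 ± 0.28). The median of the 15 was −0.03 there, beside −0.95 for the 7 members.

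**Figure D5:**
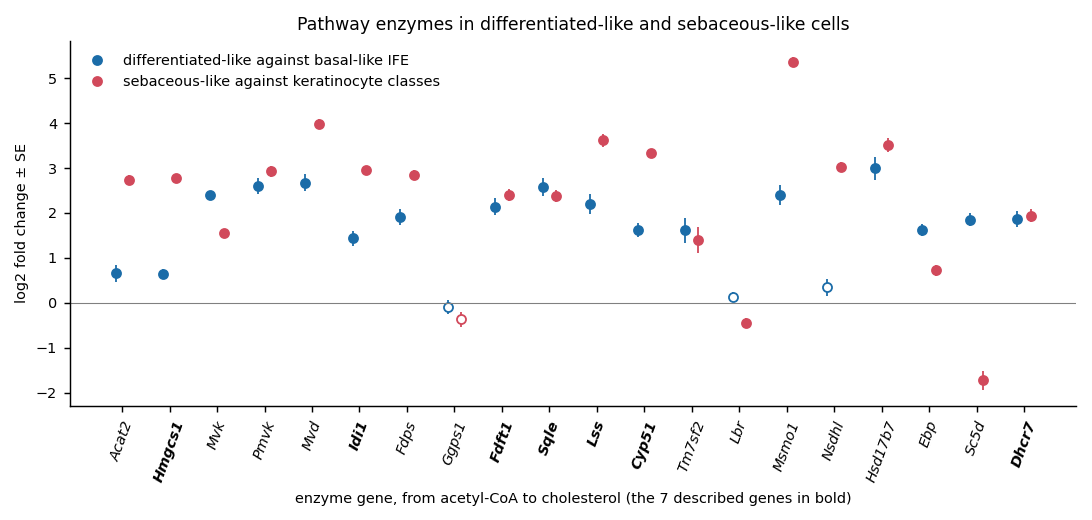
Log2 fold changes of the 7 genes and of 13 other sterol enzymes in pathway order, for differentiated against basal IFE in blue and for sebaceous cells against keratinocytes in red, with bars of 1 SE and filled points where adjusted p was under 0.05. Most enzymes lie above 0 in both comparisons, and Sc5d (−1.72) and Lbr (−0.45) lie below it in sebaceous cells.

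Genes that sense and take up sterols followed in part. Of 12, 8 were higher and 2 lower in differentiated than in basal IFE, where 25.6% of all genes were higher and 27.5% lower, with the sterol carrier Stard4 (2.78 ± 0.17), Srebf2 (1.34 ± 0.12), Insig1 (1.75 ± 0.21) and the lysosomal sterol carrier Npc2 (−0.59 ± 0.09) at the lowest p-values. Sebaceous cells had 8 higher and 2 lower, against 21.5% and 25.9% of all genes, with Insig1 (2.21 ± 0.14), Srebf1 (2.09 ± 0.17), Srebf2 (1.07 ± 0.10) and Scap (1.36 ± 0.13) at the lowest p-values. Insig1, which holds the Srebf factors back when sterols are plentiful, was also higher in inner root sheath and hair shaft cells (2.45 ± 0.18) and in melanocytes (2.03 ± 0.11). Langerhans cells had 3 higher and 2 lower, against 26.6% and 27.1% of all genes, and Npc2 was the foremost of them at 2.95 ± 0.05.

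Of 8 genes of sterol export and storage, 7 were tested. Langerhans cells had 5 higher and 0 lower, against 26.6% and 27.1% of all genes. The sterol esterifying enzyme Soat1 (5.92 ± 0.24), Apoe (3.31 ± 0.17), Abcg1 (4.70 ± 0.37) and Abca1 (2.56 ± 0.33) had the lowest p-values. In this class all 7 synthesis genes lay below the keratinocyte mean. Sebaceous cells had 4 higher and 1 lower, against 21.5% and 25.9% of all genes. Soat1 stood at 855 and 743 CPM in sebaceous cells, 65.1 and 65.9 CPM in Langerhans cells and at no more than 3.40 CPM in any of the 9 keratinocyte classes, and Apoe was higher in sebaceous cells by 4.08 ± 0.16. Of 13 genes of fatty acid synthesis, 12 were tested, and 10 were higher and 1 lower in differentiated than in basal IFE, against 25.6% and 27.5% of all genes, led by Elovl1 (3.26 ± 0.18), Scd2 (2.08 ± 0.14), Me1 (1.28 ± 0.13) and Elovl6 (1.92 ± 0.19). In sebaceous cells 10 were higher and 2 lower, against the same shares of all genes as above, led by Elovl6 (6.75 ± 0.08), Scd1 (7.86 ± 0.11), Fasn (4.42 ± 0.08) and Acss2 (5.69 ± 0.14).

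Idi2, a close paralog of Idi1, had at most 3 UMIs in any class of either mouse and was not tested, at a depth where Idi1 was counted in every class.

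The genes most like the members were ranked by Pearson r with the mean of the 7 standardized profiles, over the 28 sums and among 6070 genes with a mean of at least 20 CPM. The 10 nearest were Hsd17b7 (r = 0.948), Cyp17a1 (0.941), Fitm2 (0.938), Fdps (0.934), Psmc2 (0.930), Hsd17b12 (0.928), Por (0.927), Pla2g12a (0.925), Msmo1 (0.914) and Acaca (0.913). Hsd17b7, Fdps and Msmo1 are sterol enzymes, Por passes electrons to Cyp51 and Sqle, and Acaca starts fatty acid synthesis. The members themselves had r between 0.876 (Dhcr7) and 0.947 (Cyp51) with that mean. Each member is part of the mean, so a high r is built in and is not to be set beside those of other genes. With the 2 sebaceous sums left out, only Hsd17b7 (0.933) remained among the 10 nearest, which then held Gars, Psmc5, Nsun2, Fabp5, Hars, Csnk2a2, Nhp2, Eif4g1 and Gatad2a. The sums share animals and libraries, so no p-value is attached.

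The remaining cells entered no test. Merkel cells (17 and 19 cells) gave 370 and 346 CPM for the summed level of the 7 genes, and 503 and 445 CPM without TMM scaling. Clusters whose markers conflicted (led by Ccl27a and Pcsk2) or that no marker list fitted (led by Ncam1 and Tagln) were left unnamed and are given by a leading gene. The one led by Ncam1 (515 and 704 cells) had a summed level of 129 and 150 CPM, below every named class in both mice. That place depends on the scaling. Without TMM scaling the Ncam1 cluster gave 124 and 143 CPM, and Langerhans cells lay lower at 115 and 138 CPM. The clusters led by Pcsk2 (464 and 860 cells), Ccl27a (552 and 1009 cells) and Tagln (317 and 531 cells) ranged from 163 to 257 CPM after TMM scaling.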

How the data were processed

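Epidermal cells of 2 Chrm3 KO mice were profiled as 1 droplet library per mouse. The deposited values are raw UMI counts per gene and barcode, which the authors made with Cell Ranger 3.0.2 and the mm10 build, per the labels, and which were not normalized. The matrices held 10816 and 15867 barcodes. Depth was 109756784 and 166441732 UMIs, and the intervals and floors given cover counting error only.

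A cell was kept if it had 900 to 7700 detected genes and less than 10% of its UMIs from mitochondrial genes. Both libraries were log-normalized and integrated with Seurat 5.3.0 (R 4.3.3, 2000 variable genes, 30 dimensions), with 57 listed lipid genes held out, and clustered at resolution 0.8. The marker lists were set in the design, and the rule that turns them into names was set after the clusters were seen. A cluster stayed unnamed where its markers conflicted or where no marker list fitted it. Doublets were scored with Scrublet in scanpy 1.11.5. Its own threshold marked only 2 cells in mouse 1, so the threshold found for mouse 2 (0.222) was used for both, which marked 175 (2.30%) and 416 (3.50%) cells, and these were left out only in an alternative.

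UMI counts were summed per mouse and class, giving 28 sums of 14 classes, and fitted in 1 model with edgeR 4.0.16 (TMM, filterByExpr, quasi-likelihood F-test, 13895 genes, two-sided, Benjamini-Hochberg over all genes). The SE of a log2 fold change is its size divided by the square root of F. Same-numbered sums come from the same animal and are therefore paired. The correlation of their deviations over 91 pairs of classes ran from −0.01 to 0.312, with a median of 0.0587. The design carries no block, and the fit with mouse as a block was an alternative. Named genes were the 7 members and, from each list and comparison, at most 4 genes with the lowest p past the threshold, and a few listed genes that the rule would name are not reported here. The members and lists were chosen with earlier results of these data known. The main fit was also run on simulated counts with independent sums, a check that could not cover the sharing of animals between classes. Alternatives were DESeq2 1.42.0, its size factors, no filter on low counts, the block, only the classes compared, no doublets, a 5% mitochondrial limit, resolution 1.2, no integration and each mouse left out. A looser naming of clusters, the removal of shared barcodes and the split of sebaceous cells were chosen after seeing the data. Promoters came from the RefSeq table of GRCm38.p6.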

Additional observations from a re-analysis of the deposited data

How the results depend on the processing

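Of 638 values of called members under the alternatives other than leaving out a mouse, 608 kept direction and call, 27 lost the call and 3 turned, and the 58 called values had the same sign in each mouse alone. The 3 that turned did so among cells with under 5% mitochondrial UMIs, which held only part of each class: Dhcr7 in sebaceous cells (−0.22), and Hmgcs1 in dividing follicle (0.0597) and upper follicle cells (0.15). With this limit the genes called fell to 2357 for transitional, 1004 for terminally differentiated against basal, 2542 for terminally differentiated against differentiated, 675 for dividing, 1396 for follicle, 2223 for dividing follicle, 3964 for inner root sheath and hair shaft, 3936 for upper follicle and 4004 for sebaceous cells, from 4410, 2296, 4078, 2597, 4013, 5542, 6692, 6030 and 6583, with 1 member called for dividing basal and 1 for T cells. With mouse as a replicate block 1 member was called for terminally differentiated against basal, 2 members and 4070 genes for dividing basal cells, and no other count of members moved by over 1.5 times. Without integration the dividing comparison called 2 members and 4352 genes, and it called 1 member with no filter and 1 under the looser naming. Resolution 1.2 left 1 member for terminally differentiated against basal and gave 2 for follicle cells, and DESeq2 size factors left 1 for T cells. Of the 10 nearest genes 1 was shared without the sebaceous sums. Thinning to 3000 UMIs lowered the share of cells with any member to means of 77.7% (sebaceous), 74.7% (differentiated), 47.3% (basal) and 27.7% (Langerhans), by construction. Except where stated, the cause was not tested.

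Values that were not called also turned near 0. Hmgcs1 in terminally differentiated against basal IFE became 0.11 with DESeq2, 0.13 with its size factors, 0.27 under the mitochondrial limit and 0.034 under the looser naming. The mitochondrial limit gave Hmgcs1 0.14, Lss −0.0036 and Dhcr7 0.021 in dividing basal cells, Idi1 0.00081, Fdft1 0.28, Lss −0.015 and Dhcr7 0.38 in follicle cells, Dhcr7 0.036 in dividing follicle cells, Hmgcs1 0.28 in inner root sheath and hair shaft cells, Cyp51 −0.0397 in melanocytes, and Lss 0.089 and Dhcr7 0.095 in T cells. In follicle cells Sqle became −0.029 without doublets and −0.22 at resolution 1.2, and the looser naming gave Idi1 0.0103 and Fdft1 0.061. Cyp51 in T cells became 0.084 with DESeq2, 0.092 with size factors and 0.049 without doublets, and Sqle in dermal-like cells 0.13 and 0.15 with DESeq2 and its size factors.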
